A study of Homo sapiens with 6 samples.

Results

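The 10 genes described here, ATF4, ATF3, DDIT3, CEBPB, ASNS, PSAT1, PHGDH, CHAC1, TRIB3 and SESN2, are the transcription factor ATF4 together with partners and targets of its amino acid stress response. They were taken by name from the 20030 genes of a count table, and all 10 were found in it. The libraries were made from HepG2, an established human hepatoma line, after stable lentiviral delivery of a short hairpin RNA (shRNA) in a pLKO.1 vector. In sh-ctrl the hairpin was a control, and in sh-KIF11 it was directed against KIF11, the kinesin motor that separates the spindle poles in mitosis. Each group had 3 poly(A) RNA libraries, the 6 of the series. According to the methods for such lines, infected cells were selected with puromycin, an inhibitor of translation; whether it was present at harvest is not given in the sources used here, and the labels name no treatment other than the hairpin. A single hairpin design for KIF11 appears in the oligo list, while the labels do not say which hairpin a library carried, so the loss of KIF11 and any other effect of that hairpin cannot be told apart, and since the labels do not say whether replicates were separate cultures, p-values measure only the spread between these libraries, which may be technical.

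ATF4 is the main effector of the integrated stress response. Kinases that sense amino acid shortage (GCN2), unfolded protein in the endoplasmic reticulum (PERK), double-stranded RNA (PKR) or haem deficiency and mitochondrial stress (HRI) phosphorylate the initiation factor eIF2, which lowers general translation while raising that of ATF4 through short upstream reading frames in its mRNA. The protein then pairs with C/EBP family members and drives genes for amino acid synthesis and uptake, tRNA charging, and feedback. Because much of this control is translational, the ATF4 mRNA level is not a measure of ATF4 protein, which was not measured in these libraries.

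Of the 10 genes, 9 had enough counts for a test and 7 changed in KIF11 knockdown HepG2 cells, 2 upward and 5 downward. SESN2 (log2 fold change 0.86) and ATF3 (0.56) were higher, whereas TRIB3 (-1.03), PHGDH (-0.91), PSAT1 (-0.66), ATF4 (-0.66) and CEBPB (-0.63) were lower. DDIT3 and ASNS did not pass the threshold, and CHAC1 lay at the detection limit in both groups. The 7 genes are 77.8% of the 9 tested, where 69.1% of all 12369 tested genes changed (34.4% higher, 34.7% lower), so the share of changed members was not far from that of all genes. The median log2 fold change was -0.63 over the 9 tested members and 0.0043 over all tested genes. Here and throughout, a change means that edgeR's quasi-likelihood F test gave a Benjamini-Hochberg adjusted p below 0.05, corrected over all 12369 genes, and a log2 fold change is sh-KIF11 minus sh-ctrl. The genes named for one response therefore did not move in 1 direction.

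The libraries held 18167773 to 19583282 counts. KIF11 itself stood at 111, 116 and 121 CPM (counts scaled to a common library size) for sh-ctrl against 72.1, 71.4 and 62.8 for sh-KIF11, with a log2 fold change of -0.75 (SE 0.0573, edgeR adjusted p = 4.22e-15), in the direction of the labels. CPM are scaled with TMM factors, which correct for a few strongly expressed genes taking up much of a library; they were 0.922 to 0.926 in sh-ctrl and 1.08 to 1.09 in sh-KIF11. Scaling by library totals alone moved the median log2 fold change of all genes to 0.24, and all tested members but DDIT3 kept their direction under that scaling. Of 7 hepatocyte markers (ALB, AFP, APOA1, APOB, TTR, SERPINA1 and HNF4A) none was at 0 and 6 were lower in sh-KIF11. Their summed level was 27666 to 28791 CPM in sh-ctrl and 13377 to 14449 in sh-KIF11. Fibroblast markers (7 genes, DCN at 0, 1 tested and lower) summed to 2.55–3.93 CPM in sh-ctrl and 1.45–2.19 in sh-KIF11, and endothelial markers (5 genes, TEK at 0, 1 of 2 tested higher) to 3.16–3.55 and 4.68–4.98. Leukocyte markers (5 genes, LST1 at 0, nearly all of the sum from CD68, both tested genes lower) summed to 78.0–89.1 and 41.7–46.2 CPM. The part of these marker shifts in the changes below was not tested, and in such bulk RNA fewer cells with a transcript and less of it per cell cannot be told apart.

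**Figure D1:**
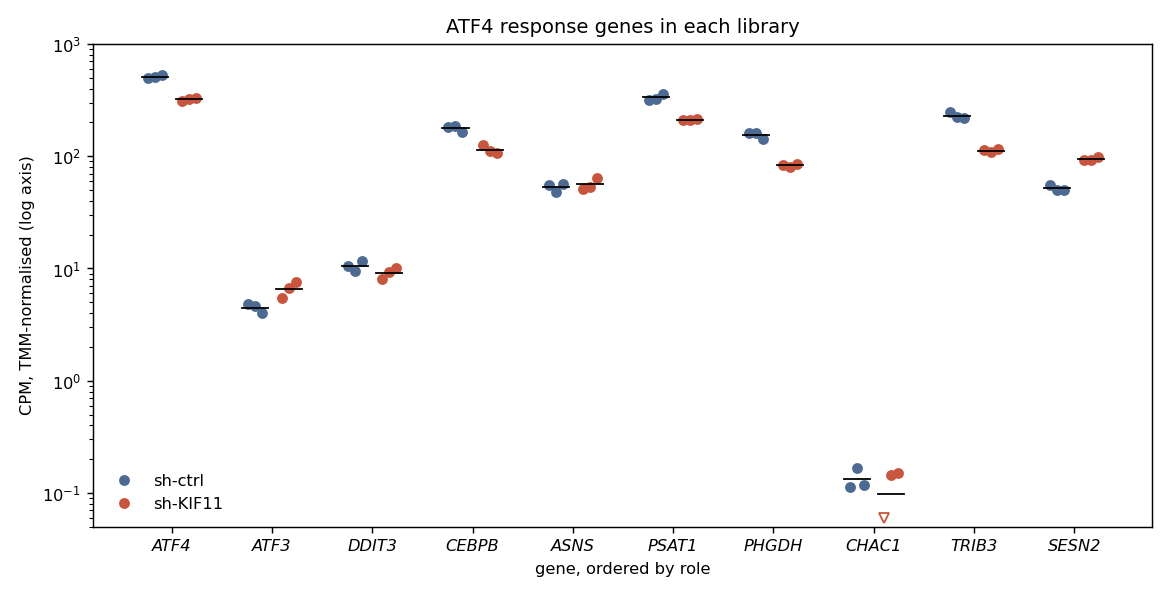
Level of each gene in CPM (TMM-normalised, log axis) in every library of sh-ctrl (blue) and sh-KIF11 (red), with a line at each group mean and an open triangle for a library with a count of 0. The groups are apart for ATF4, ATF3, CEBPB, PSAT1, PHGDH, TRIB3 and SESN2, and they overlap for DDIT3, ASNS and CHAC1.

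ATF4 and C/EBP proteins bind a composite element, the C/EBP-ATF response element, in genes that respond to amino acid shortage. The letters TGATGNAA (N, any base) were searched on both strands of 17 RefSeq promoters of the 10 genes (GRCh38.p14, 250 bases before to 50 after each start), and 3 promoters held them, 1 each in ATF3, ASNS and CHAC1. Among all 35116 promoters of this length 3.62% held them. The letters of the cyclic AMP response element, TGACGTCA, searched the same way, were in none of the 17 and in 1.85% of all. ATF3 and ASNS had more than 1 promoter, and only that of the upstream start held the match. For ATF3 the other promoter begins far downstream, at chr1:212614768. The stretches around the matches are shown, 5′ to 3′ on the strand of the gene and with the match in capitals. These are the members with a promoter that holds the letters that ATF4 is known to bind.
ASNS (chr7:97872409-97872536, minus strand, match 68 bases before the start): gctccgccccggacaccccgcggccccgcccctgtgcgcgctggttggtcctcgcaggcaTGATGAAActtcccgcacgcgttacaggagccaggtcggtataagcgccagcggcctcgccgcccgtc
ATF3 (chr1:212565157-212565283, plus strand, match 191 bases before the start): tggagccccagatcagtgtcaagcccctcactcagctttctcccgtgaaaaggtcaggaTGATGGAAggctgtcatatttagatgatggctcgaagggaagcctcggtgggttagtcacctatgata
CHAC1 (chr15:40953221-40953329, plus strand, match on the other strand, 209 bases before the start): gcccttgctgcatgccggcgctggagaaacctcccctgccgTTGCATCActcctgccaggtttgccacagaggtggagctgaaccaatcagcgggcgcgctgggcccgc
The ASNS match is in the stretch known as its nutrient-sensing response element. A match of letters is a description of the window only, and elements outside it were not searched.

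Among the transcription factors, ATF4 (chromosome position chr22:39519695-39522685, plus strand) had 495, 508 and 527 CPM among controls, against 311, 323 and 331 after knockdown. Every knockdown library was below every control. The means were 509.8 ± 16.1 and 322 ± 9.996 CPM (SD, n = 3 each), and the log2 fold change was -0.66 (SE 0.0481, 95% interval -0.76 to -0.57, edgeR adjusted p = 8.16e-16). The fall held under library totals alone, at -0.43. GENCODE release 29 lists 4 pseudogenes named after ATF4, and 4 each for ASNS and PSAT1, none of them in the count table. Whether reads shared with those copies were counted for the gene or left out is not given in the sources used here.

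CEBPB (chr20:50190734-50192689, plus strand), the C/EBPβ protein that can pair with ATF4 and is itself induced by amino acid shortage, was read at 181, 186 and 166 CPM in sh-ctrl, against 126, 111 and 108 in sh-KIF11. The groups did not overlap, with a gap between the lowest control (replicate 3) and the highest knockdown library (replicate 1). Its log2 fold change was -0.63 (SE 0.0561, edgeR adjusted p = 4.43e-13), and it was -0.40 with library totals alone and -0.33 in limma on log2(FPKM + 1). The antisense gene CEBPB-AS1 overlaps part of CEBPB, and the strand setting of the counting is not given in the sources used here.

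ATF3 (chr1:212565334-212620777, plus strand), a stress-inducible repressor that is both a target and a partner of ATF4, was a low transcript, with raw counts of 86, 83 and 68 for sh-ctrl, against 109, 140 and 150 for sh-KIF11. In CPM these were 4.82, 4.598 and 4.03 against 5.43, 6.76 and 7.601, so all sh-KIF11 libraries were above all sh-ctrl libraries, the nearest pair being 4.82 and 5.43. The log2 fold change was 0.56 (SE 0.16, 95% interval 0.23 to 0.88, edgeR adjusted p = 0.00228). Of the 7 changed members it had the widest interval, and with library totals alone its value was 0.79.

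DDIT3 (chr12:57516588-57521737, minus strand), which encodes CHOP, the pro-apoptotic factor of prolonged ATF4 signalling, had 10.4, 9.53 and 11.6 CPM in sh-ctrl, against 8.02, 9.37 and 10.1 in sh-KIF11. The groups overlapped, since the highest sh-KIF11 library exceeded the lowest sh-ctrl library. The log2 fold change was -0.20 and its 95% interval ran from -0.44 to 0.04, so a fall of up to 0.44 or a small rise are both within it (edgeR adjusted p = 0.135). Under library totals alone the value was 0.033. The gene overlaps MARS and MBD6 on the opposite strand and AC022506.1 on its own, and reads of opposite-strand partners can be told apart only where the counting used strand.

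Of the amino acid synthesis enzymes, PHGDH (chr1:119648411-119744226, plus strand) and PSAT1 (chr9:78297143-78330093, plus strand) catalyse consecutive steps from the glycolytic intermediate 3-phosphoglycerate towards serine. PHGDH stood at 162, 161 and 144 CPM in sh-ctrl, against 83.2, 80.9 and 85.4 in sh-KIF11. PSAT1 stood at 314, 326 and 362 CPM in sh-ctrl, against 211, 209 and 212 in sh-KIF11. Both fell without overlap, PHGDH to 0.534 and PSAT1 to 0.631 of the control mean. Their log2 fold changes were -0.91 (SE 0.0544, edgeR adjusted p = 2.05e-18) and -0.66 (SE 0.0512, edgeR adjusted p = 5.52e-15), and with library totals alone they were -0.67 and -0.43. PSPH, the phosphatase of the last step to serine, fell as well, from 156 ± 9.301 to 109 ± 4.603 CPM (SD, n = 3 each; log2 fold change -0.53, edgeR adjusted p = 1.45e-11).

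ASNS (chr7:97852118-97872542, minus strand), asparagine synthetase, whose promoter stretch with a C/EBP-ATF match is printed above, had 55.4, 47.97 and 56.7 CPM in sh-ctrl, against 51.4, 53.2 and 64.003 in sh-KIF11. The lowest and highest libraries of the groups interleaved, and only the third sh-KIF11 library was above all controls. The log2 fold change was 0.08 with a 95% interval of -0.07 to 0.22 (edgeR adjusted p = 0.364). This call depended on the scaling. With library totals alone ASNS was higher by 0.31 (edgeR adjusted p = 0.000262), and in limma on log2(FPKM + 1) by 0.27 (adjusted p = 0.0155), whereas without sh-KIF11 replicate 3 the value was -0.029. A processed transcript, AC079781.5, overlaps ASNS on the same strand. The interval of ASNS excluded a fall as large as that of PHGDH or PSAT1.

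The stress effectors split. TRIB3 (chr20:362835-397559, plus strand), a pseudokinase that feeds back on ATF4 and on AKT signalling, had 247, 223 and 218 CPM in sh-ctrl, against 113, 109 and 115 in sh-KIF11. Its level in every sh-KIF11 library was near 0.49 of the control mean, with a log2 fold change of -1.03 (SE 0.0526, edgeR adjusted p = 8.88e-21). This was the largest fall among the 9 tested members, and it was -0.80 with library totals alone.

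SESN2 (chr1:28259527-28282491, plus strand), the sestrin that binds leucine and restrains mTORC1, and that p53 also induces, had 55.5, 50.4 and 50.2 CPM in sh-ctrl, against 93.5, 92.4 and 98.01 in sh-KIF11. All knockdown libraries lay above all controls. The log2 fold change was 0.86 (SE 0.0586, 95% interval 0.74 to 0.98, edgeR adjusted p = 1.09e-16), the largest rise of the members, and it was 1.09 under library totals alone.

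CHAC1 (chr15:40952962-40956519, plus strand), which degrades glutathione and is a late target of ATF4, ATF3 and CHOP, had raw counts of 2, 3 and 2 in sh-ctrl, against 0, 3 and 3 in sh-KIF11. No library exceeded 3 counts, the detection floor used here, which corresponds to 0.145 to 0.178 CPM depending on the library. No fold change is given, and at this depth no difference between the groups could be detected. Its paralogue CHAC2 was counted at 7.52 ± 0.725 and 9.37 ± 0.327 CPM and rose with a log2 fold change of 0.32 (edgeR adjusted p = 0.0212), a call that was lost in DESeq2 (adjusted p = 0.0814) and in edgeR without sh-ctrl replicate 2 (adjusted p = 0.0813), sh-ctrl replicate 3 (0.0604) or sh-KIF11 replicate 3 (0.0665).

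An exact two-sided permutation test over the libraries gave p = 0.1, the smallest that 3 against 3 allows, for each of the 7 genes without overlap. The same exact test gave p = 0.2 for DDIT3, 0.6 for ASNS and 0.8 for CHAC1. Groups without overlap were found for 71.2% of all tested genes.

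**Figure D2:**
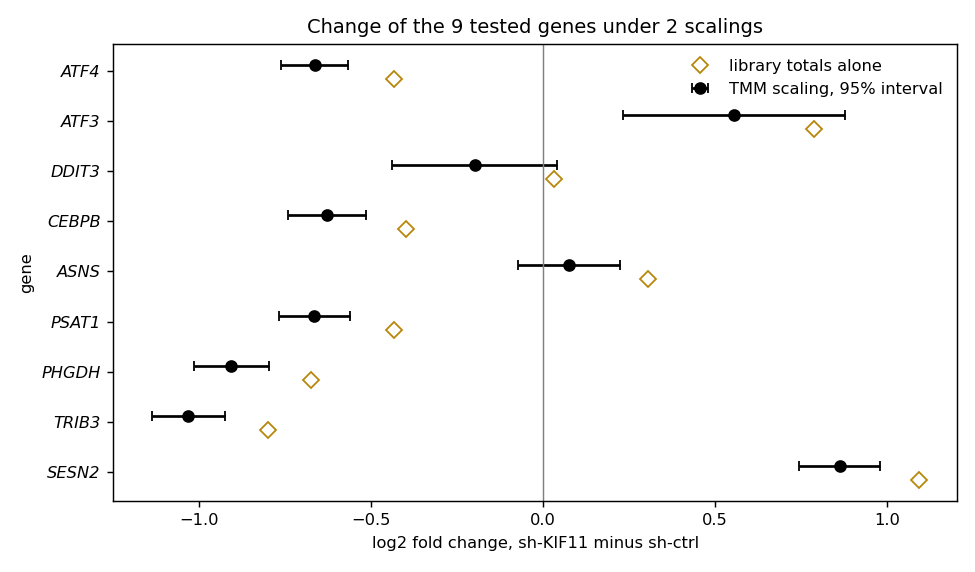
Log2 fold change (sh-KIF11 minus sh-ctrl) of the 9 tested genes with TMM scaling (points, bars are 95% intervals, n = 3 each) and with library totals alone (open diamonds, which all lie further right). Intervals of 7 genes exclude 0, those of DDIT3 and ASNS include it, and DDIT3 is at 0.033 and ASNS at 0.31 with library totals alone.

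Levels of different genes were compared in the deposited FPKM, which are scaled to transcript length. These values departed from the counts by more than the spans of the genes above account for. In sh-ctrl ATF4 had 509.8 CPM and 53.1 FPKM, whereas CEBPB had 177 CPM and 93.1 FPKM. PHGDH had 156 CPM and ASNS 53.4, at similar FPKM. The reason was not tested, so the orders below hold for these FPKM only. In sh-ctrl the order was PSAT1 (178 ± 10.1 FPKM, SD, n = 3), CEBPB (93.1 ± 3.34), TRIB3 (55.1 ± 3.68), ATF4 (53.1 ± 1.85), ASNS (13.6 ± 1.29), PHGDH (12.4 ± 0.932), SESN2 (11.7 ± 0.686), DDIT3 (4.997 ± 0.548), ATF3 (0.895 ± 0.162) and CHAC1 (0.0191 ± 0.00418). TRIB3 and ATF4 lay within their spread of each other, as did ASNS, PHGDH and SESN2. In sh-KIF11 the order was PSAT1 (126 ± 2.402 FPKM), CEBPB (73.8 ± 5.62), ATF4 (37.3 ± 1.83), TRIB3 (31.7 ± 0.923), SESN2 (24.4 ± 0.898), ASNS (16.7 ± 2.38), PHGDH (7.71 ± 0.315), DDIT3 (4.82 ± 0.673), ATF3 (1.59 ± 0.327) and CHAC1 (0.0163 ± 0.0142). The libraries of ASNS, PHGDH and SESN2 were then apart from each other, SESN2 uppermost and PHGDH lowest. In FPKM, PSAT1 and CEBPB led in both groups and DDIT3, ATF3 and CHAC1 closed both.

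Counts of a gene per 100 ATF4 counts in the same library do not depend on how libraries are scaled. On this measure SESN2 went from 9.54–11.2 in sh-ctrl to 28.6–30.1 in sh-KIF11, a 2.88-fold ratio of means. ATF3 went from 0.765–0.975 to 1.75–2.298, ASNS from 9.44–11.2 to 16.5–19.3 and DDIT3 from 1.87–2.205 to 2.58–3.05. Thus the 4 genes stood higher relative to ATF4 in every knockdown library than in any control. ATF4 itself fell, and only 8.65% of all tested genes had a lower log2 fold change, so most genes rose on this measure. DDIT3 and ASNS did not pass the threshold in CPM. With library totals alone ATF4 was at -0.43, DDIT3 at 0.033 and ASNS at 0.31. How far the higher ASNS ratio came from ATF4 or from ASNS itself thus depended on the scaling.

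PSAT1, at 63.6–68.8 counts per 100 ATF4 counts among controls and 64.2–67.7 after knockdown, and CEBPB, at 31.5–36.6 and 32.6–40.6, overlapped between the groups. TRIB3 went from 41.5–49.9 to 33.7–36.3 and PHGDH from 27.3–32.8 to 25.02–26.8, both lower without overlap. Groups did not overlap for 6 of the 8 genes compared with ATF4, where 87.1% of all tested genes other than ATF4 did not overlap on this measure, as ATF4 itself fell.

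**Figure D3:**
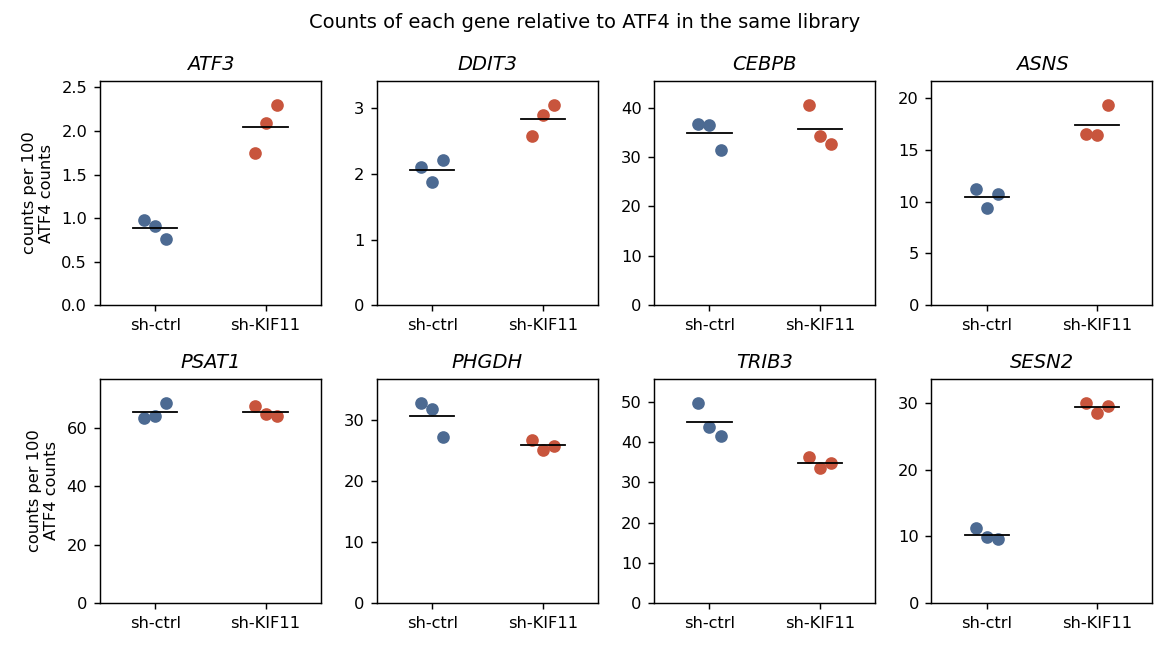
Counts of 8 genes per 100 ATF4 counts in each sh-ctrl (blue) and sh-KIF11 (red) library, on axes that start at 0, with a line at each group mean. SESN2, ATF3, ASNS and DDIT3 are higher in all sh-KIF11 libraries, TRIB3 and PHGDH are lower, and PSAT1 and CEBPB overlap.

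Relatives of the members, taken by gene symbol, did not all follow them. CEBPD, another C/EBP factor, fell with a log2 fold change of -1.32 (SE 0.0835, edgeR adjusted p = 1.26e-17), and CEBPA, the hepatocyte C/EBP, fell (-0.36). The value for CEBPA was -0.13 with library totals alone and -0.12 in limma on log2(FPKM + 1), where the call was lost without a filter on low values (adjusted p = 0.0595). CEBPZ, included by its symbol alone and not as a C/EBP factor, rose (0.21), though not past the threshold without sh-KIF11 replicate 2 (0.15, edgeR adjusted p = 0.0504). CEBPG, which pairs with ATF4, had 0.03 with a 95% interval of -0.10 to 0.16, and 0.26 with library totals alone (edgeR adjusted p = 0.000317). Of the sestrins, SESN3 rose from 1.19 ± 0.147 to 5.96 ± 0.3197 CPM (SD, n = 3 each; log2 fold change 2.31, edgeR adjusted p = 7.91e-13), from low counts of 24, 19 and 20 to 115, 131 and 115. In limma on log2(FPKM + 1) without a filter the rise of SESN3 was 0.63, since a pseudocount of 1 shrinks changes of genes under 1 FPKM. SESN1 was at 65.4 ± 7.65 and 62.4 ± 0.5303 CPM and did not pass the threshold (-0.07, 95% interval -0.20 to 0.07). TRIB1 rose (0.52), opposite to TRIB3, while TRIB2 had 0.25 with an interval of -0.18 to 0.69 (0.48 with library totals alone, edgeR adjusted p = 0.0427).

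The genes around the members were read from 7 lists of 101 genes in all, of which 99 could be tested. Of these 18 were higher and 60 lower, 78.8% changed, beside 69.1% of all genes, with a median log2 fold change of -0.22 against 0.0043. With library totals alone the split was 37 higher and 38 lower, so the balance of directions across the lists depended on the scaling; for all genes it moved from 4254 higher and 4294 lower to 6621 and 2373.

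Upstream of ATF4, the list of eIF2 kinases and eIF2 control had 3 of 15 genes higher and 7 lower (8 and 4 with library totals alone), with a median of -0.02. The 2 kinase genes that changed went opposite ways. EIF2AK4, which encodes GCN2, had 2144, 2339 and 2389 counts among controls, against 3217, 3440 and 3411 after knockdown (log2 fold change 0.35, edgeR adjusted p = 3.12e-07), and EIF2AK3, which encodes PERK, had 825, 873 and 803, against 693, 814 and 670 (log2 fold change -0.40, edgeR adjusted p = 5.65e-06). With library totals alone they were 0.58 and -0.17. EIF2AK1, the HRI gene, and EIF2AK2, the PKR gene, had -0.02 and 0.04 with intervals of -0.12 to 0.08 and -0.07 to 0.15. Their calls depended on the scaling. With library totals alone EIF2AK1 and EIF2AK2 were higher, at 0.21 and 0.27 (edgeR adjusted p = 0.000152 and 1.75e-05).

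The phosphatase subunits that reverse eIF2 phosphorylation also split. PPP1R15A (GADD34), the stress-induced one and a target of ATF4 and CHOP, rose from 27.4 ± 1.01 to 47.8 ± 6.03 CPM (SD, n = 3 each; log2 fold change 0.80, edgeR adjusted p = 1.16e-11). PPP1R15B (CReP), the constitutive one, was at 61.3 ± 1.27 and 39.6 ± 0.842 CPM, a log2 fold change of -0.63 (edgeR adjusted p = 2.43e-11). IMPACT, an inhibitor of GCN2 activation, rose (0.52). All 5 subunit genes of the exchange factor eIF2B were lower with TMM scaling, from -0.15 for EIF2B1 to -0.49 for EIF2B3, but with library totals alone only 2 of the 5 passed, both lower, and EIF2B1 was at 0.08.

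Of the 10 bZIP partners and feedback factors, 3 were higher and 4 lower (median -0.01; 5 and 3 with library totals alone). Besides TRIB1 and CEBPD, NUPR1, a stress-induced chromatin factor, rose (0.51) and NFE2L1, which controls proteasome genes, fell (-0.42). Within the list of amino acid and one-carbon synthesis, 2 of 15 were higher and 11 lower, with a median of -0.43 (3 and 9 with library totals alone). SHMT1, the cytosolic serine hydroxymethyltransferase, fell from 110.0 ± 3.497 to 49.3 ± 2.098 CPM (SD, n = 3 each; log2 fold change -1.16, edgeR adjusted p = 2.55e-21), and ASS1, which makes argininosuccinate, fell with -1.07. The 2 that rose were low, ALDH1L2, a mitochondrial folate enzyme, with counts of 7, 8 and 2 in sh-ctrl, against 43, 49 and 61 in sh-KIF11 (log2 fold change 2.95), and BCAT1, a branched-chain aminotransferase, with 25, 16 and 10, against 42, 40 and 42 (1.08). On the log2(FPKM + 1) scale without a filter these rises were 0.29 and 0.13, past the threshold in limma as well (adjusted p = 0.000393 and 0.00956).

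Cytosolic aminoacyl-tRNA synthetases, which load amino acids onto tRNA, had the narrowest range of the 7 lists. Of 20 genes 4 were higher and 11 lower, with a median of -0.14, a lowest value of -0.41 for FARSA and a highest of 0.29 for NARS; LARS had 0.28 and KARS -0.40. With library totals alone 10 were higher and 5 lower, so no direction is given for this family.

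Among 11 amino acid transporters 10 were tested, and 1 was higher and 8 lower (2 and 3 with library totals alone; median -0.25). The exception was SLC7A11, the cystine importer xCT and a target of ATF4 and NRF2, which rose from 42.9 ± 4.08 to 81.5 ± 5.86 CPM (SD, n = 3 each; log2 fold change 0.93, edgeR adjusted p = 8.61e-16). SLC6A9, a glycine transporter, fell with -1.17 and SLC7A5, the leucine importer LAT1, with -0.50. SLC7A3 had no count in any library, each of which could have missed up to 3 counts.

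Other outputs linked to ATF4 moved in both directions, 4 of 12 tested higher and 5 lower (6 and 4 with library totals alone; median -0.10). DDIT4 (REDD1), like SESN2 a restraint on mTORC1, fell from 154 ± 11.6 to 70.2 ± 4.48 CPM (SD, n = 3 each; log2 fold change -1.13, edgeR adjusted p = 7.74e-21). INHBE, an activin subunit made by hepatocytes, fell by a similar size (-1.20). Higher were SESN3 and KLHL24, a ubiquitin ligase adaptor (1.07). FGF21, the hepatic stress hormone, had at most 1 count in any library.

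The chaperones and the XBP1 and ATF6 branches of the endoplasmic reticulum response, which run beside the PERK branch that leads to ATF4, were lower in 14 of 17 genes and higher in 1, with a median of -0.68 (10 and 3 with library totals alone). PDIA4, a protein disulphide isomerase, went from 969 ± 11.6 to 330.5 ± 22.3 CPM (SD, n = 3 each; log2 fold change -1.55, edgeR adjusted p = 1.54e-27). SDF2L1, a cofactor of the chaperone BiP, fell with -1.33. The gene that rose was SEL1L, a subunit of the degradation complex of the endoplasmic reticulum, by a log2 fold change of 0.13 (edgeR adjusted p = 0.0196), lost without sh-KIF11 replicate 1 (adjusted p = 0.0897) or replicate 2 (0.0628).

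**Figure D4:**
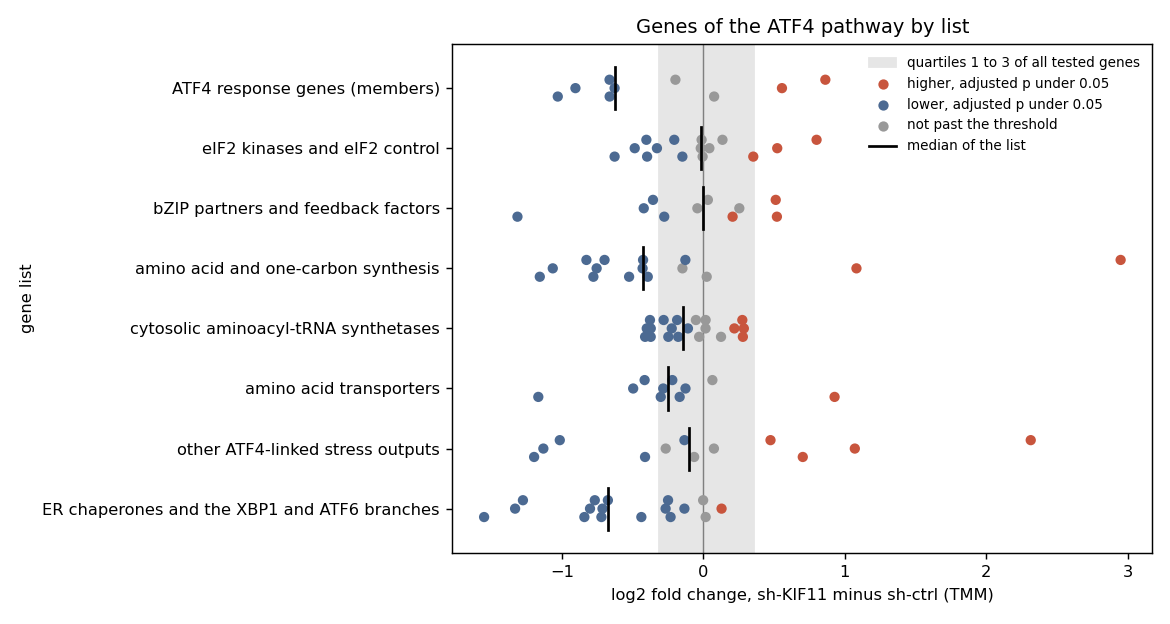
Log2 fold change (sh-KIF11 minus sh-ctrl, TMM scaling) of each tested gene in the member list and in 7 pathway lists, red where higher and blue where lower at an adjusted p under 0.05 and grey otherwise, with a line at each list's median and a grey band from quartile 1 to quartile 3 of all tested genes (-0.31 to 0.36). The member list runs from TRIB3 at -1.03 to SESN2 at 0.86, and the endoplasmic reticulum list has the lowest median, -0.68.

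For likeness to ATF4, 9389 genes averaging 10 CPM or more had their log2 CPM centred and compared with ATF4 over the 6 libraries. The 3 nearest were AGMAT, NAB1 and C19orf70, with root mean square distances of 0.027, 0.028 and 0.029 on the log2 scale. AGMAT was at 339.7, 335 and 341 CPM among controls, against 205, 212 and 219.7 after knockdown. No member was among the 3, and the points share libraries and scaling, so the distances are a description.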

How the data were processed

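HepG2 libraries (3 sh-ctrl, 3 sh-KIF11) were grouped by the labels; the table columns named shRNA were taken as sh-KIF11, the only other hairpin listed. Per the labels RNA was isolated with the mirVana kit and made into libraries with the TruSeq Stranded mRNA kit. The submitters' processing notes name bcl2fastq 1.8.4, Trimmomatic, HISAT2 2.1.0, Cufflinks 2.2.1, HTSeq 0.9.1, DESeq and GRCh38; annotation release and strand setting are not given in the sources used here. The deposited tables hold raw counts, not normalized, and FPKM, which the authors had scaled to transcript length and library size.

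Counts were tested in R 4.3.3 with edgeR 4.0.16 (filterByExpr, which kept 12369 genes and left out 7661, TMM, quasi-likelihood F test, group as the only term, adjusted p threshold 0.05, biological coefficient of variation 4.87%). The procedure was run on simulated counts in which few genes changed, as many up as down. That setting could not test the scaling of these libraries, where most tested genes changed. DESeq2 1.42.0 and limma 3.58.1 on log2(FPKM + 1) and log2(FPKM + 0.1), with a mean of at least 1 FPKM or no filter, were alternatives, with RLE, upper-quartile and total scaling, no filter, a minimum of 10 counts per library, a block on the replicate number, and leaving out each library. A library's floor was 3 counts, and intervals are 95%. The floors cover counting error only, whereas the intervals of log2 fold changes include the spread between libraries. Replicates were distinct, with a chi-square divided by its degrees of freedom of 2.67 to 8.11 within groups and 84.0 to 102 between them.

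The members and all lists were chosen with earlier results of these data known. Named were all members, KIF11, the 2 largest rises and 2 largest falls of each list past the threshold, genes at the floor, relatives by name and the 3 genes most like ATF4. The 4 eIF2 kinase genes and EIF2B1 were named after their values were seen. Gene positions are from GENCODE release 29 (GRCh38) and promoters from RefSeq (GRCh38.p14).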

Additional observations from a re-analysis of the deposited data

How the results depend on the processing

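The count of changed members was 7 (2 higher, 5 lower) under 13 of 16 alternatives and 8 with library totals alone or under limma on log2(FPKM + 1) or log2(FPKM + 0.1), where ASNS joined the higher genes at 0.31, 0.27 and 0.29 (adjusted p = 0.000262, 0.0155 and 0.0166). DDIT3 turned to 0.033 with library totals alone (edgeR adjusted p = 0.814). Leaving out single libraries, ASNS ranged from -0.029 (without sh-KIF11 replicate 3) to 0.13 and DDIT3 from -0.27 to -0.11. The other 7 members kept their direction and their call under all 16, with log2 fold changes from -0.69 to -0.43 for ATF4, 0.44 to 0.79 for ATF3, -0.70 to -0.33 for CEBPB, -0.70 to -0.43 for PSAT1, -0.96 to -0.62 for PHGDH, -1.07 to -0.78 for TRIB3 and 0.83 to 1.09 for SESN2. Among relatives that did not pass the threshold, CEBPG ranged from -0.013 (without sh-ctrl replicate 1) to 0.064 and SESN1 from -0.12 to 0.031 (without sh-ctrl replicate 3) when single libraries were left out, and SESN1 was 0.013 with upper-quartile factors, 0.17 with library totals alone and 0.10, 0.11 and 0.10 in the limma fits. With library totals alone, the members ATF4 (-0.43), PSAT1 (-0.43) and CEBPB (-0.40) moved by over 1.5 times without losing their call. Other values that did so included -0.40 for PPP1R15B, -0.26 for EIF2B3, 0.58 for EIF2AK4, -0.17 for EIF2AK3, -0.13 for CEBPA and -0.19 for NFE2L1. Further ones were 0.52 for NARS, 0.51 for LARS, -0.17 for KARS, -0.18 for FARSA, -0.27 for SLC7A5, -0.29 for PSPH, 0.55 for CHAC2, 0.36 for SEL1L and 0.44 for CEBPZ. In limma on log2(FPKM + 1) FARSA was at -0.18, SLC6A9 at -0.61 and KLHL24 at 0.63. The list genes split 18 higher and 60 lower in the fit reported, 23 and 50 with upper-quartile factors and 37 and 38 with library totals alone, and all genes 4254 and 4294, 5014 and 3563, and 6621 and 2373. With the replicate number as a block 8607 genes changed, with 7 members (2 higher, 5 lower) and 78 list genes among them. Libraries of the same number did not deviate together (correlations 0.03, -0.02 and -0.0025), so no shared deviation was seen. Whether libraries of the same number were prepared together is not given in the sources used here. The cause of these shifts was not tested. Depth limits CHAC1, FGF21 and SLC7A3, and with 3 libraries per group small differences in DDIT3 and ASNS could not be resolved. The call for ASNS also depended on the scaling and the fit.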
